A study of Homo sapiens with 4 samples.

Results

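The caspase cascade examined here comprised 8 genes. CYCS, APAF1, CASP9, CASP6, XIAP and DIABLO belong to the intrinsic, or mitochondrial, pathway of apoptosis, and CASP2 and the caspase substrate PARP1 were examined with them. The 8 genes were chosen by gene symbol, each matched to its Ensembl identifier, out of 58233 genes in the deposited count table, and all 8 were found in it. MIA PaCa-2 and PANC-1, established human pancreatic cancer cell lines that the sample records describe as wild type, were treated for 24 h with PBS or with cannabichromene (CBC), a phytocannabinoid of hemp. The dose was 35 µM CBC in MIA PaCa-2 cells and 30 µM CBC in PANC-1 cells. The sample records name the controls PBS, whereas the study's methods speak of a vehicle control and of CBC dissolved in acetonitrile, so solvent and CBC cannot be told apart. Polyadenylated RNA was sequenced in 1 library per condition, 4 libraries in all, so differences within a line could not be checked against replicates.

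In the intrinsic pathway, cytochrome c leaves the mitochondria and binds APAF1, which assembles into the apoptosome and recruits and activates caspase-9. Caspase-9 in turn cuts executioner caspases, which take the cell apart. XIAP inhibits some caspases, caspase-9 among them, and DIABLO, released from mitochondria, relieves that inhibition. PARP1, a nuclear enzyme that answers DNA breaks by building poly(ADP-ribose), is a classic caspase substrate. Caspases are made as inactive precursors and switched on as proteins, so the RNA levels below measure the supply of transcript and not the activity of these proteins.

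The coding stretches that carry the chemistry of this cascade are shown first, read from the MANE Select transcripts of GENCODE on GRCh38, 5′ to 3′ on the coding strand, with the codons of the named site in capitals. The 3 caspase stretches surround the codons of the catalytic cysteine (QAC, codons 318 to 320 of 452 in CASP2, 161 to 163 of 293 in CASP6 and 285 to 287 of 416 in CASP9), and each crosses an exon junction, so that its bases lie at the ends of chr7:143300270-143303785 (plus strand, CASP2), chr4:109690995-109694536 (minus strand, CASP6) and chr1:15495451-15504635 (minus strand, CASP9).
CASP2: ttcttcatcCAGGCCTGCcgtggagat
CASP6: tttatcattCAGGCATGTcggggaaac
CASP9: tttttcatcCAGGCCTGTggtggggag
The PARP1 stretch (chr1:226388722-226388751, minus strand, exon 5 of 23) holds the DEVD cleavage site that caspases cut, at codons 211 to 214 of 1014. The CYCS stretch (chr7:25124057-25124083, minus strand, exon 2 of 3) holds the heme attachment motif at codons 15 to 19 of 105. The DIABLO stretch holds the AVPI motif, codons 56 to 59 of 239, which becomes the amino end of the mature protein and docks on XIAP, and it too crosses an exon junction, at the ends of chr12:122218395-122224538 (minus strand).
PARP1: agaaaaggcGATGAGGTGGATggagtggat
CYCS: atgaagTGTTCCCAGTGCCACaccgtt
DIABLO: accctgtgtGCGGTTCCTATTgcacagaaa

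The libraries held 21742775 to 27903667 counts on genes, at which 3 counts, the limit that a count of 0 allows, correspond to 0.11 to 0.135 CPM. Levels are given as counts and as CPM, the usual count per unit of library size, with sizes set by edgeR's TMM normalization of all 4 libraries together, and intervals on counts cover counting error only. The keratins KRT8, KRT18 and KRT19 were expressed in all 4 libraries, whereas the epithelial markers EPCAM and CDH1 had 0 or 1 count in MIA PaCa-2 cells and 32 to 264 counts in PANC-1 cells. The 6 markers of ductal epithelium summed to 3490 CPM in the MIA PaCa-2 control, 2555 CPM after CBC, 2058 CPM in the PANC-1 control and 1216 CPM after CBC. The leukocyte markers PTPRC and CD3E and the endothelial marker PECAM1 were at 0 in all 4 libraries. The 5 leukocyte markers summed to 0.878 to 5.67 CPM. Of them CD14 had 123 and 18 counts in control and CBC-treated MIA PaCa-2 cells and 32 and 2 counts in PANC-1 cells. Across both lines CD14 was lower after CBC (adjusted p = 0.0303 by the quasi-likelihood test of edgeR). CD68 had 1 and 9 counts in MIA PaCa-2 cells and 12 and 22 counts in PANC-1 cells. The 3 endothelial markers summed to 2.20 CPM in the MIA PaCa-2 control, mostly CDH5 with 49 counts, and to at most 0.364 CPM in the other libraries. Of the 6 mesenchymal markers VIM was high in all 4 libraries and the fibroblast genes DCN and LUM were at 0. The collagen gene COL1A2 had 8174 counts in the MIA PaCa-2 control and 2348 after CBC, with 0 and 1 count in PANC-1 cells, while COL1A1 had 3037 and 1268 counts in PANC-1 cells and 11 and 13 counts in MIA PaCa-2 cells. Mitochondrially encoded genes took 5.81% of the counts in control MIA PaCa-2 cells and 3.86% after CBC, and 4.63% and 2.42% in PANC-1 cells, and the part of these shifts in the results below was not tested. In such bulk libraries fewer expressing cells and less RNA per cell cannot be told apart.

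Of the 8 genes, PARP1 was the only gene that passed the test across both lines, and its transcript was lower after CBC in each line. CASP2 and APAF1 also had lower levels and CASP9 and XIAP higher levels after CBC in both lines without passing that test, and CASP6 was lower in MIA PaCa-2 cells and slightly higher in PANC-1 cells. In the fit across both lines CYCS and DIABLO showed the smallest differences of the 8. Together the 8 genes held 0.0962% of the counts in the MIA PaCa-2 control and 0.0768% after CBC, and 0.0946% and 0.0867% in PANC-1 cells.

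**Figure D1:**
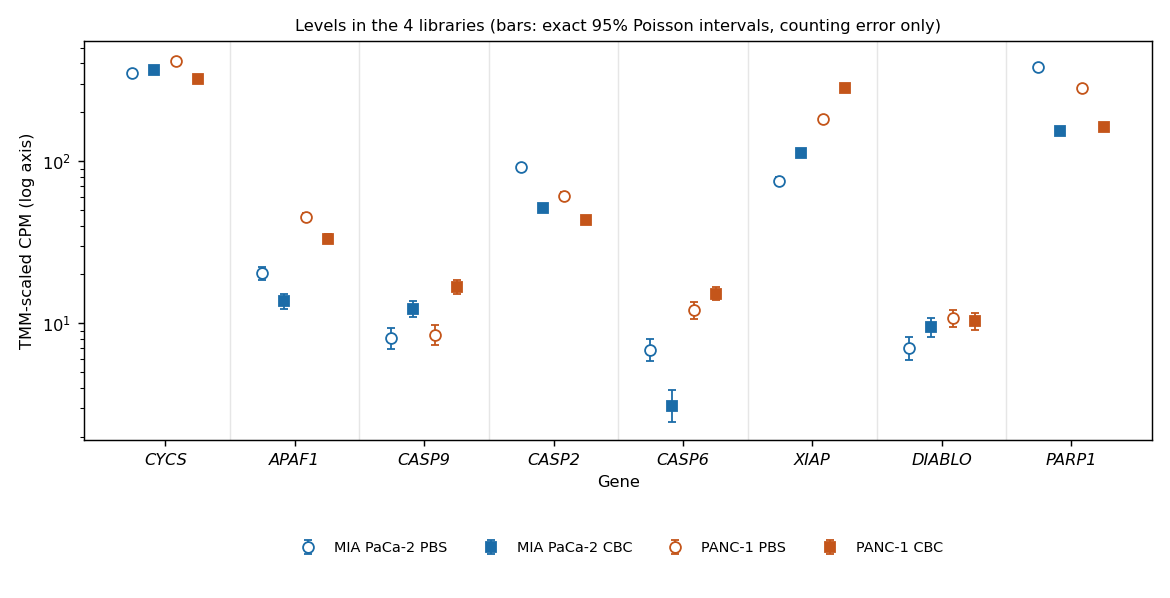
Levels of the 8 genes in the 4 libraries, as CPM on a log axis, with open circles for PBS and filled squares for CBC, blue for MIA PaCa-2 and orange for PANC-1. Bars are exact 95% Poisson intervals, and both CBC libraries lie below both PBS libraries for PARP1 (152 and 163 CPM against 379 and 281 CPM).

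PARP1 (chromosome 1, 226360210 to 226408154, minus strand) had 8427 counts, or 379 CPM, in the MIA PaCa-2 control and 3772 counts, or 152 CPM, after CBC. In PANC-1 cells it had 6384 counts, or 281 CPM, in the control and 4457 counts, or 163 CPM, after CBC. Both CBC libraries therefore lay below both controls, and the lines, which differed 1.35-fold in PBS with MIA PaCa-2 higher, stood at a log2 ratio of 0.10 (interval 0.03 to 0.16) in CBC. In MIA PaCa-2 cells the level was 2.48-fold lower after CBC (log2 ratio -1.31, 95% interval -1.37 to -1.26) and in PANC-1 cells 1.72-fold lower (log2 ratio -0.78, interval -0.84 to -0.73). The counting intervals of the lines do not overlap, but doses and lines differ together and the difference between the lines was not tested.

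Across both lines, PARP1 fell by 1.04 on the log2 scale (SE 0.21, lower in 2 of 2 lines, adjusted p = 0.0343 by the quasi-likelihood test of edgeR, blocked on cell line, with Benjamini-Hochberg adjustment over 16381 genes). That was 1 of the 8 genes called, in a fit that called 4.71% of all genes tested and 2.45% as lower, and 4 of the 8 had an unadjusted p under 0.05 in that edgeR test, beside 20.9% of all genes tested. The median log2 change of the 8 genes across both lines was -0.26, beside 0.02 over all genes tested. The test has 1 residual degree of freedom and borrows its spread from all genes, and without the block the PARP1 call was lost (log2 change -1.06, adjusted p = 0.99995 by edgeR).

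**Figure D2:**
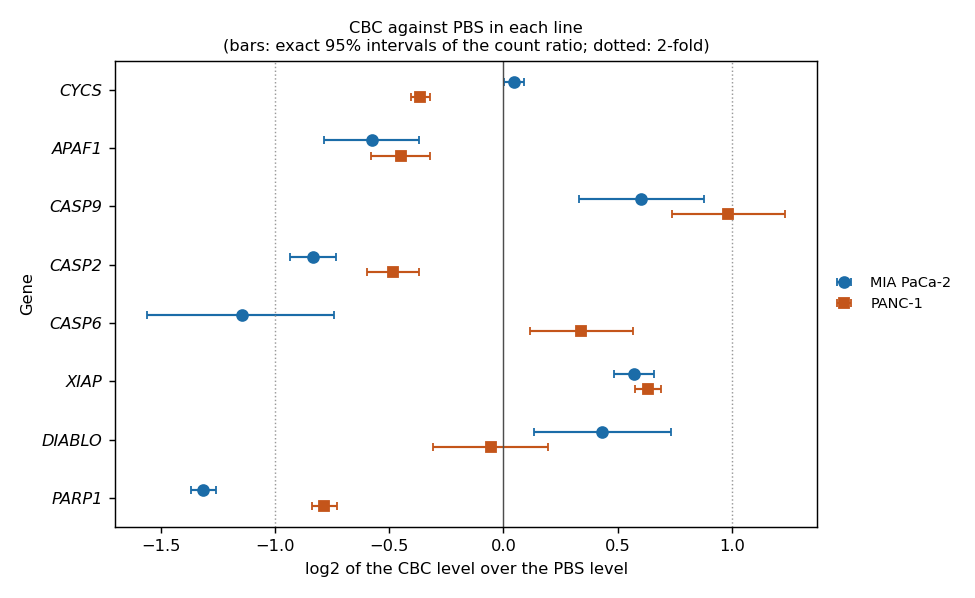
Difference between CBC and PBS for each gene, as the log2 ratio of library-scaled counts, with blue circles for MIA PaCa-2 and orange squares for PANC-1. Bars are exact 95% intervals that cover counting error only, dotted lines mark a 2-fold difference, and only the interval of PARP1 in MIA PaCa-2 cells (-1.37 to -1.26) lies wholly past it.

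CYCS encodes cytochrome c, the trigger of apoptosome assembly. It had 7818 counts (352 CPM) in the MIA PaCa-2 control and 8967 counts (363 CPM) after CBC, against 9430 counts (415 CPM) and 8807 counts (322 CPM) in PANC-1 cells. The 4 levels lay close together, with the CBC-treated PANC-1 library lowest and the PANC-1 control highest. The MIA PaCa-2 log2 ratio was 0.04 (interval 0.00041 to 0.09) and the PANC-1 log2 ratio -0.36 (interval -0.41 to -0.32), and across both lines the log2 change was -0.15 (SE 0.19, edgeR adjusted p = 0.711). The gene (chromosome 7, 25118656 to 25125260, minus strand) has 42 named pseudogenes, whose counts summed to 0.212% to 0.333% of its own in each library.

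APAF1 (chromosome 12, 98645290 to 98735433, plus strand) encodes the scaffold of the apoptosome. It had 453 counts (20.4 CPM) in control and 338 counts (13.7 CPM) in CBC-treated MIA PaCa-2 cells, and 1031 counts (45.3 CPM) and 907 counts (33.2 CPM) in PANC-1 cells. Both PANC-1 libraries lay above both MIA PaCa-2 libraries, and within each line the CBC library was the lower. The level was 1.49-fold lower after CBC in MIA PaCa-2 cells and 1.37-fold lower in PANC-1 cells, with overlapping counting intervals of the log2 ratio (-0.78 to -0.37 and -0.58 to -0.32). Across both lines the log2 change was -0.51 (SE 0.25, edgeR adjusted p = 0.296). APAF1 shares 750 exonic bases with ANKS1B on the other strand, which had 5, 0, 24 and 14 counts in the same order of libraries.

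CASP9, the initiator caspase that the apoptosome activates, was higher after CBC in each line. It had 180 counts (8.09 CPM) in the MIA PaCa-2 control and 304 counts (12.3 CPM) after CBC, and 193 counts (8.49 CPM) in the PANC-1 control and 458 counts (16.8 CPM) after CBC. The controls of the lines were indistinguishable by counting error (log2 ratio 0.07, interval -0.23 to 0.37), and both CBC libraries lay above them. The level was 1.52-fold higher after CBC in MIA PaCa-2 cells (log2 ratio 0.60, interval 0.33 to 0.88) and 1.97-fold higher in PANC-1 cells (log2 ratio 0.98, interval 0.74 to 1.23). Across both lines the log2 change of CASP9 was 0.80 (SE 0.32, higher in 2 of 2 lines), which did not pass (edgeR adjusted p = 0.209). The gene lies on chromosome 1 (15490832 to 15526534, minus strand), and it shares 101 exonic bases with CELA2B on the other strand, which had 0 counts in all 4 libraries.

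CASP2, the initiator caspase activated on the PIDDosome, had the highest RNA level of the 3 caspases. It had 2046 counts (92.0 CPM) in the MIA PaCa-2 control and 1278 counts (51.7 CPM) after CBC, and 1382 counts (60.8 CPM) and 1188 counts (43.5 CPM) in PANC-1 cells. Both CBC libraries lay below both controls, as for PARP1. The level was 1.78-fold lower after CBC in MIA PaCa-2 cells (log2 ratio -0.83, interval -0.93 to -0.73) and 1.40-fold lower in PANC-1 cells (log2 ratio -0.48, interval -0.60 to -0.37). Across both lines the log2 change of CASP2 (chromosome 7, 143288215 to 143307696, plus strand) was -0.65 (SE 0.22, lower in 2 of 2 lines), which did not pass (edgeR adjusted p = 0.145).

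CASP6, an executioner caspase best known for cutting nuclear lamins, differed in opposite directions in the lines. It had 153 counts (6.88 CPM) in the MIA PaCa-2 control and 77 counts (3.11 CPM) after CBC, and 274 counts (12.1 CPM) in the PANC-1 control and 417 counts (15.3 CPM) after CBC. The CBC-treated MIA PaCa-2 library was lowest and the CBC-treated PANC-1 library highest. The MIA PaCa-2 log2 ratio was -1.14 (interval -1.56 to -0.74) and the PANC-1 log2 ratio 0.34 (interval 0.12 to 0.57), and the log2 change across both lines was -0.36 (SE 0.43, edgeR adjusted p = 0.690). Whether the lines differ in this response could not be tested with 1 library per condition. CASP6 (chromosome 4, 109688622 to 109703583, minus strand) shares 98 exonic bases with MCUB on the other strand, which had 717, 344, 637 and 764 counts in the same order of libraries. Scaled by library size, the log2 fold change of MCUB was -1.21 between the MIA PaCa-2 libraries and -0.0029 between the PANC-1 libraries. The kit marks strand, but the sources used here do not give the strand option of the counting, and the part of MCUB reads in the CASP6 values was not tested.

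XIAP, an inhibitor that binds caspase-9, was higher after CBC in each line. It had 1684 counts (75.7 CPM) in the MIA PaCa-2 control and 2780 counts (112 CPM) after CBC, and 4122 counts (181 CPM) in the PANC-1 control and 7680 counts (281 CPM) after CBC. Both PANC-1 libraries lay above both MIA PaCa-2 libraries, and the CBC library was the higher in each line. The ratio was of like size in the lines, 1.48-fold in MIA PaCa-2 cells (log2 ratio 0.57, interval 0.48 to 0.66) and 1.55-fold in PANC-1 cells (log2 ratio 0.63, interval 0.58 to 0.69). Across both lines the log2 change of XIAP (chromosome X, 123859712 to 123913972, plus strand) was 0.61 (SE 0.19, higher in 2 of 2 lines), which did not pass (edgeR adjusted p = 0.126), whereas DESeq2's Wald test gave an adjusted p of 0.0371, the lowest over 7 alternatives that ranged to 0.99995.

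DIABLO, the mitochondrial antagonist of XIAP, had 156 counts (7.01 CPM) in the MIA PaCa-2 control and 234 counts (9.46 CPM) after CBC, and 244 counts (10.7 CPM) and 282 counts (10.3 CPM) in PANC-1 cells. The MIA PaCa-2 control was the lowest library, and the PANC-1 libraries did not differ beyond counting error. The MIA PaCa-2 log2 ratio was 0.43 (interval 0.13 to 0.73) and the PANC-1 log2 ratio -0.06 (interval -0.31 to 0.20), and the log2 change across both lines was 0.19 (SE 0.35, edgeR adjusted p = 0.802). DIABLO (chromosome 12, 122207663 to 122227456, minus strand) shares 1139 exonic bases with another annotated gene on its own strand that had 0 counts in all 4 libraries, and 970 exonic bases with B3GNT4 on the other strand, which had 32, 12, 6 and 5 counts. Reads in such shared exons may not be assignable to either gene, so the DIABLO counts are uncertain.

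Within single lines, 2 of the 8 genes passed a 2-fold difference in MIA PaCa-2 cells, CASP6 and PARP1, both lower, with log2 fold changes of -1.12 and -1.31 at a prior count of 2. In that line 20.5% of 14001 genes tested passed 2-fold and 8.97% did so as lower. No gene of the 8 passed it in PANC-1 cells, where 14.7% of 14091 genes tested did, and CASP9 came nearest, with a log2 fold change of 0.97. For the 8 genes this log2 fold change had medians of -0.26 (MIA PaCa-2) and -0.21 (PANC-1), beside -0.01 and 0.02 over all genes tested. The CASP6 value in MIA PaCa-2 cells was no longer past 2-fold with a pseudocount of 1 on the deposited CPM (-0.94), and CASP9 in PANC-1 cells was past it when scaled by library totals (1.04).

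At baseline the lines differed most in XIAP and APAF1. In the PBS libraries XIAP was 2.39-fold higher in PANC-1 than in MIA PaCa-2 cells (log2 ratio 1.26, interval 1.18 to 1.34) and APAF1 2.23-fold higher (log2 ratio 1.15, interval 0.99 to 1.32). These were the 2 of 8 genes past 2-fold in PBS, a comparison in which 41.9% of 14805 genes tested passed and 24.0% did so as higher in PANC-1. CASP6 was 1.75-fold higher (interval of the log2 ratio 0.52 to 1.10) and DIABLO 1.53-fold higher (interval 0.32 to 0.91) in PANC-1 cells. CASP2 was 1.51-fold and PARP1 1.35-fold higher in MIA PaCa-2 cells, CYCS was 1.18-fold higher in PANC-1 cells, and CASP9 did not differ beyond counting error. The median log2 fold change of the 8 genes between the control libraries was 0.42, beside 0.10 over all genes tested.

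**Figure D3:**
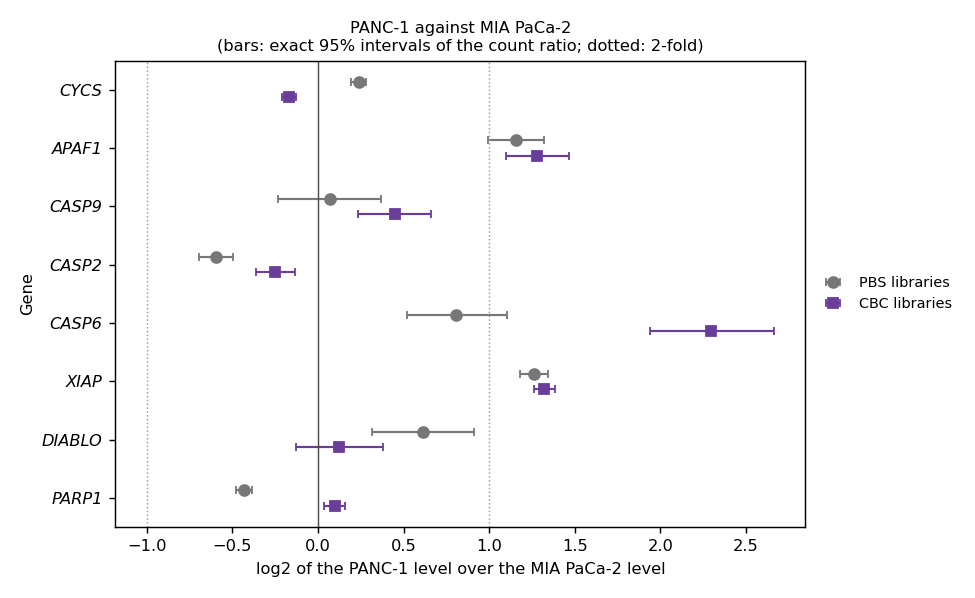
Difference between PANC-1 and MIA PaCa-2 cells for each gene, as the log2 ratio of library-scaled counts, in grey for the PBS libraries and purple for the CBC libraries. Bars are exact 95% intervals that cover counting error only, dotted lines mark a 2-fold difference, and CASP6 moves from 0.81 in PBS to 2.29 in CBC while XIAP stays at 1.26 and 1.32.

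Over both treatments, 3 of the 8 genes were called between the lines, all higher in PANC-1 cells, in a fit that called 46.7% of all genes tested and 25.1% as higher. The log2 difference was 1.23 for XIAP (SE 0.20, edgeR adjusted p = 0.0018), 1.16 for APAF1 (SE 0.25, edgeR adjusted p = 0.00733) and 1.48 for CASP6 (SE 0.44, edgeR adjusted p = 0.0264). The median log2 difference of the 8 genes was 0.25, beside 0.01 over all genes tested. The CASP6 gap was wider between the CBC libraries, at 4.90-fold (interval of the log2 ratio 1.94 to 2.66), than between the PBS libraries, a difference that was not tested. For XIAP and APAF1 the ratios were 2.50-fold and 2.43-fold in CBC, within the counting intervals of their PBS values. The CASP6 call was lost with DESeq2 (adjusted p between 0.000423 and 0.0996 over 7 alternatives), and no gene of the 8 was called when the treatment was left out of the fit.

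Set against the length of the MANE transcript, PARP1 and CYCS stood above the other genes in all 4 libraries. With CPM divided by the length of the MANE transcript, the MIA PaCa-2 control gave 95.3 CPM per kilobase for PARP1 and 64.7 for CYCS, then 22.5 for CASP2, 8.85 for XIAP, 4.77 for DIABLO, 4.21 for CASP6, 2.88 for CASP9 and 2.83 for APAF1. After CBC the level of PARP1 per kilobase in the same line was 38.3 and that of CYCS 66.7, so their order turned. In PANC-1 cells PARP1 was already below CYCS in the control, at 70.6 against 76.4 CPM per kilobase, and stood at 41.0 against 59.3 after CBC. XIAP per kilobase was 32.8 in CBC-treated PANC-1 cells, above CASP2 at 10.6, whereas CASP2 was above XIAP in the MIA PaCa-2 control. The order depends on the length used, since PARP1 has 18399 bases over all annotated exons against 3978 in its MANE transcript, and over all exons it stood at 20.6 CPM per kilobase in the MIA PaCa-2 control, below CYCS at 60.7. Over all exons XIAP stood above PARP1 in the other 3 libraries, at 11.8 against 8.29 in CBC-treated MIA PaCa-2 cells and at 19.0 against 15.3 and 29.5 against 8.87 in control and CBC-treated PANC-1 cells.

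For each of the 8 genes the gene with the most alike profile was sought, by the Euclidean distance of log2 CPM centred over the 4 libraries, among 10050 genes that averaged 10 CPM or more. The closest were POLR1E to APAF1 (distance 0.0251), HSDL2 to CASP2 (0.0334), TBCC to DIABLO (0.0402), PARP6 to XIAP (0.0452), MEA1 to CYCS (0.0489), RUBCN to CASP9 (0.0760), DCTPP1 to PARP1 (0.145) and PSMD10 to CASP6 (0.159). PARP1 and CASP6 thus had the least close neighbours. DCTPP1 had 86.0 and 38.3 CPM in control and CBC-treated MIA PaCa-2 cells and 69.1 and 36.4 CPM in PANC-1 cells, and with 4 libraries such likeness is a description only.

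The stretches before the annotated starts of PARP1 and CASP2 are shown because for these genes both CBC libraries lay below both controls. They come from RefSeq's promoter windows on GRCh38.p14 (250 bases before to 50 after each start), read 5′ to 3′ on the gene's strand up to the first annotated exon, with GC boxes (GGGCGG or CCGCCC) and CCAAT boxes (CCAAT or ATTGG) in capitals. The PARP1 stretch is chr1:226408155-226408343, minus strand, and the CASP2 stretch is chr7:143288101-143288214, plus strand.
PARP1: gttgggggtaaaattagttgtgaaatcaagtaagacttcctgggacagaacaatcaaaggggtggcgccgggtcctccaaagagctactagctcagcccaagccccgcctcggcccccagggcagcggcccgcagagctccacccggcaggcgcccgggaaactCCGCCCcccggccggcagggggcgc
CASP2: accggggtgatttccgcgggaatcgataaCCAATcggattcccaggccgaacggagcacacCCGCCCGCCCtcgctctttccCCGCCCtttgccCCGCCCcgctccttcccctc
At the MANE starts, a GC box lay in the windows of 6 of the 8 genes, all but CYCS and XIAP, beside 45.0% of 35116 windows of that length, and a CCAAT box in those of CASP2, CYCS, APAF1 and DIABLO, beside 34.6%. The 35116 windows are not limited to MANE starts, so the shares are not of a like set. At other annotated starts GC boxes also lay in windows of XIAP, and a CCAAT box in a window of CASP9. The NRF1 letters GCATGCGC were found only before CYCS, 169 bases upstream of its start, and in 3.05% of all windows. Letters for E2F (TTTCCCGC, TTTGGCGC, TTTCGCGC or TTTGCCGC, 3.31% of windows), ATF4 (TGATGNAA, 3.62%) and CREB (TGACGTCA, 1.85%), searched on both strands, were in no window of the 8 genes.

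Beside the 8 genes, a list of 34 further genes of the cascade and its branches was examined by role. Across both lines 25 of the 34 were tested and 3 were called, all lower after CBC: BIRC5, CSE1L and PTMA, beside 4.71% of all genes tested. In MIA PaCa-2 cells 26 of the 34 were tested, with 1 past 2-fold higher (BIRC3) and 4 lower (CRADD, BIRC5, HPF1 and SEPTIN4), a share near the 20.5% of all genes. In PANC-1 cells 24 were tested, with 2 higher (CASP4 and PARP3) and 4 lower (PIDD1, CSE1L, ENDOG and BIRC5), beside 14.7% of all genes. The median log2 change across both lines was 0.03, beside 0.02 over all genes tested. Between the lines over both treatments 13 of the 25 were called, 5 higher and 8 lower in PANC-1 cells, beside 46.7% of all genes tested.

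**Figure D4:**
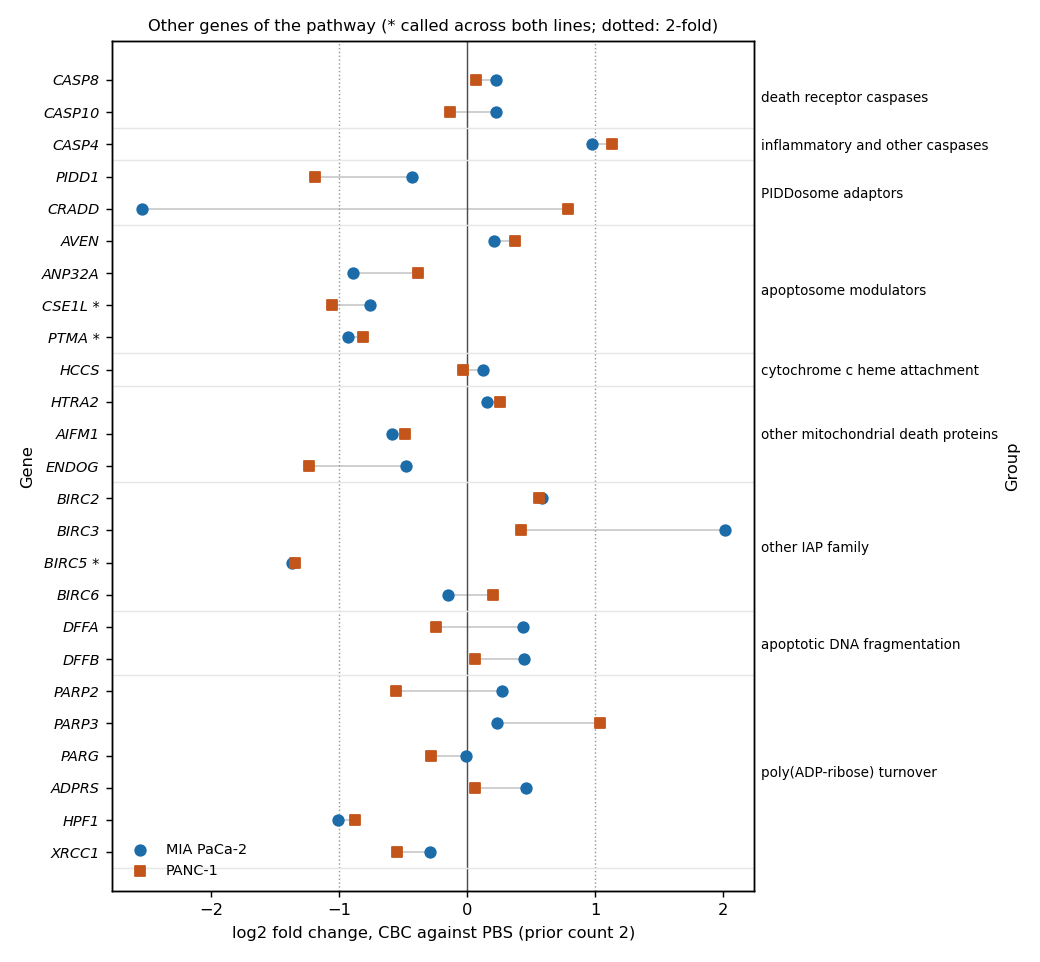
Log2 fold change after CBC at a prior count of 2 for the 25 pathway genes tested across both lines, grouped by role, with blue circles for MIA PaCa-2 and orange squares for PANC-1, joined by a line. Asterisks mark the 3 genes called across both lines and dotted lines a 2-fold difference, and CRADD is the gene with the widest gap between the lines (-2.54 and 0.79).

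Of 7 further caspases of the death receptor and inflammatory groups, 3 were tested across both lines and none was called by edgeR with its filter, while CASP4 had an unadjusted p under 0.05 and was called by DESeq2 and by edgeR without a filter on low counts. CASP8, an initiator of the death receptor route, had log2 fold changes of 0.22 and 0.07. CASP10, listed in the same group and named here after its values were seen, had 359 and 468 counts in MIA PaCa-2 cells and 2 and 2 counts in PANC-1 cells. CASP4, an inflammatory caspase that senses bacterial lipopolysaccharide, had 461 and 1011 counts and 368 and 971 counts, with log2 fold changes of 0.98 and 1.13, and came just short of the threshold across both lines (edgeR adjusted p = 0.0574).

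The PIDDosome adaptors, which bring CASP2 together, were not called across both lines, and of them PIDD1 had an unadjusted p under 0.05 in edgeR and was called without a filter on low counts (edgeR adjusted p = 0.0343, the lowest of 7 alternatives that ranged to 0.99995). PIDD1 had 833 and 689 counts in control and CBC-treated MIA PaCa-2 cells and 2337 and 1232 counts in PANC-1 cells (log2 fold changes -0.43 and -1.19). CRADD, the adaptor between PIDD1 and caspase-2, had 56 and 9 counts and 107 and 224 counts (log2 fold changes -2.54 and 0.79). The lowest CRADD library was thus CBC-treated MIA PaCa-2, and both adaptors were called higher in PANC-1 cells over both treatments, by 1.02 for PIDD1 (edgeR adjusted p = 0.0158) and 2.41 for CRADD (edgeR adjusted p = 0.0433). That fit between the lines called 46.7% of all genes tested and 25.1% as higher. The CRADD call was lost in 4 of 7 alternatives (adjusted p from 1.55e-05 to 0.148 over the 7), and that of PIDD1 was lost without the treatment term (adjusted p 0.123, range from 0.000318).

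Of the 4 apoptosome modulators, 2 were called across both lines, beside 4.71% of all genes tested. CSE1L, a nuclear export receptor also described as a cofactor of apoptosome assembly, had 10673 and 7004 counts in control and CBC-treated MIA PaCa-2 cells and 9759 and 5637 counts in PANC-1 cells, and fell by 0.90 on the log2 scale (SE 0.19, edgeR adjusted p = 0.0400). PTMA, or prothymosin alpha, described as a brake on apoptosome assembly, had 30776 and 18000 counts and 20572 and 14049 counts, and fell by 0.86 (SE 0.16, edgeR adjusted p = 0.0302). Both CBC libraries of CSE1L and of PTMA lay below both controls, with log2 fold changes of -0.76 and -1.06 for CSE1L and -0.93 and -0.82 for PTMA. PTMA has processed pseudogenes with near-identical sequence, so its counts are uncertain. The CSE1L call was lost with DESeq2's size factors, and without the replicate block the calls of CSE1L and PTMA were both lost (edgeR adjusted p = 0.99995).

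Among the mitochondrial death proteins none of 3 was called by edgeR with its filter, where AIFM1 and ENDOG had an unadjusted p under 0.05. HTRA2, a protease that also antagonises XIAP, had 1038 and 1289 counts in control and CBC-treated MIA PaCa-2 cells and 420 and 603 counts in PANC-1 cells (log2 fold changes 0.16 and 0.26). ENDOG, a mitochondrial nuclease, had 659 and 527 counts and 375 and 190 counts (log2 fold changes -0.47 and -1.24). HTRA2 and ENDOG were both called lower in PANC-1 cells over both treatments, by log2 differences of -1.35 (edgeR adjusted p = 0.00306) and -1.28 (edgeR adjusted p = 0.0122), the second of which was lost without the treatment term (adjusted p 0.143, range over 7 alternatives from 0.000846). Between the lines 46.7% of all genes tested were called.

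Of the 7 other inhibitor of apoptosis (IAP) genes, 4 were tested across both lines and 1 was called, beside 4.71% of all genes tested. BIRC5, or survivin, a mitotic protein of the IAP family, had 4930 and 2121 counts in control and CBC-treated MIA PaCa-2 cells and 5618 and 2664 counts in PANC-1 cells. It fell by 1.35 across both lines (SE 0.20, edgeR adjusted p = 0.0155), with log2 fold changes of -1.37 and -1.34, the same sign as PARP1. Without the replicate block the BIRC5 call was lost (edgeR adjusted p = 0.99995). BIRC3, an IAP of the NF-kB and TNF receptor pathways, had 703 and 3168 counts and 964 and 1551 counts, with log2 fold changes of 2.02 and 0.42, and was not called across both lines (log2 change 1.23, edgeR adjusted p = 0.118), but was without a filter on low counts (edgeR adjusted p = 0.000187, the lowest of 7 alternatives that ranged to 0.99995). SEPTIN4 is not an IAP gene and was listed as an antagonist of XIAP. It was named after its values were seen, since its mean was below 1 CPM, and held 35 and 8 counts in MIA PaCa-2 cells and 1 and 2 counts in PANC-1 cells. BIRC2, an IAP gene also named after its values were seen, had log2 fold changes of 0.59 and 0.56 after CBC. It had an unadjusted p under 0.05 in edgeR but was not called (edgeR adjusted p = 0.143). In the PBS libraries BIRC2 was 2.45-fold higher in PANC-1 cells, beside 2.39-fold for XIAP, where 24.0% of genes tested passed 2-fold as higher.

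None of the 6 genes of poly(ADP-ribose) turnover that work beside PARP1 was called across both lines, though HPF1 had an unadjusted p under 0.05 in edgeR and was called without a filter on low counts (edgeR adjusted p = 0.0496, the lowest of 7 alternatives that ranged to 0.99995). HPF1, the partner that directs PARP1 to serine residues, had 455 and 251 counts in control and CBC-treated MIA PaCa-2 cells and 564 and 368 counts in PANC-1 cells. Both CBC libraries lay below both controls, with log2 ratios of -1.01 (interval -1.24 to -0.79) and -0.88 (interval -1.07 to -0.69), and the log2 change across both lines was -0.94 (SE 0.28, edgeR adjusted p = 0.110). PARP3, a relative of PARP1 that also acts at DNA breaks, had 568 and 744 counts and 226 and 561 counts, with log2 fold changes of 0.24 and 1.04 (edgeR adjusted p = 0.269).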

How the data were processed

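The authors sequenced polyadenylated RNA in 4 libraries made with a directional kit. Reads were trimmed (cutadapt 2.7), aligned by STAR to GRCh38 and assigned by HTSeq to the genes of Ensembl 89. Versions of the aligner and counter, and the counting mode and strand setting, are not given in the sources used here. The deposited table holds raw counts. The deposited normalized signal per library equals CPM on TMM-scaled library sizes, with a largest relative difference of 6.84e-09 from values computed from the counts, and was used as an alternative only.

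The libraries were grouped by line and treatment from the sample records, and the doses come from the study's methods. Of 58233 identifiers, 57392 were paired with a symbol. Positions come from GENCODE 44, not the authors' release. The counts were fitted with edgeR 4.0.16 in R 4.3.3, with filterByExpr by treatment, TMM over the 4 libraries, and line and treatment as terms (16381 genes, common coefficient of biological variation 23%, threshold 0.05 on the Benjamini-Hochberg adjusted p). SEs are those implied by the F statistic. The line is the pair, and after subtraction of the treatment means the libraries of a line correlated at 0.9225 over genes. For CBC each line stands in for a replicate, so those p-values rest on how alike the CBC differences were in the lines. For the line difference the PBS and CBC libraries of a line stand in for replicates. Cultures of a line were not replicated, so those p-values do not measure the spread between them. Within a line, log2 fold changes (prior count 2) were described for genes reaching 1 CPM in either library of the 2 compared. Intervals are exact 95% Clopper-Pearson intervals of the count ratio or Poisson intervals of a count (scipy 1.17.1), and cover counting error only. The test was tried on simulated data with known changes, which were alike in both lines and larger than that of PARP1. That trial therefore does not bear on smaller or line-specific changes.

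The genes and lists were chosen with earlier results of these data known. All 8 genes were named, and of the 34 others those called across both lines, those past 2-fold in either line at a mean of at least 1 CPM, and CASP8, HTRA2 and BIRC5. Some items of the cascade are not reported here. Alternatives changed the scaling, filter, prior count, pseudocount, tool (DESeq2 1.42.0), block and fold rule. TMM over unfiltered genes was added after the data were seen.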

Additional observations from a re-analysis of the deposited data

Results flagged for a closer look

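In 3 of the genes named by rule the lines moved in opposite directions after CBC, with counting intervals on opposite sides of 0, and the difference between the lines was not tested because each condition had 1 library. The MIA PaCa-2 log2 fold change of CASP6 was -1.12 and the PANC-1 value 0.34. CYCS had 0.044 in MIA PaCa-2 cells, where the interval begins at 0.00041, and -0.36 in PANC-1 cells. CRADD had -2.54 in MIA PaCa-2 cells, on 56 and 9 counts, and 0.79 in PANC-1 cells. Of the other pathway genes tested, DFFA (0.43 and -0.24 in that order of lines), PARP2 (0.27 and -0.55) and BIRC6 (-0.15 and 0.20) had the same pattern and are named here after their values were seen. Doses differed between the lines, so line and dose cannot be told apart.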

How the results depend on the processing

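With 1 library per condition no library can be left out, and depth limits CASP6 in MIA PaCa-2 cells most, at 77 counts after CBC. Among the 8 genes, DESeq2's Wald test called 2 across both lines (PARP1, and XIAP higher), and without the line as a replicate block edgeR called 0, with PARP1 at an adjusted p of 0.99995. PARP1 was called in 6 of 7 alternatives, with adjusted p from 4.48e-05 to 0.99995. Between the lines, leaving out the treatment term left 0 called. In MIA PaCa-2 cells 1 gene, PARP1, was past 2-fold with the deposited CPM and a pseudocount of 1 (CASP6 -0.94) or when the whole counting interval had to be past it. In PANC-1 cells 1 gene, CASP9, was past it when scaled by library totals, and at baseline 1 gene, XIAP, with the whole interval. The causes were not tested. The other 31 counts of the 8 genes over the alternatives stayed within 1.5 times. No called value of the 8 genes changed sign, and of their uncalled ones DIABLO in PANC-1 cells (0.01) and CASP9 at baseline (-0.06) did so with library totals, a scaling that moved the baseline median of all genes by -0.13. CYCS between the lines over both treatments (-0.03) ranged from -0.10 to 0.03. Outside the 8 genes, CRADD across both lines (-0.67) was 0.22 without the replicate block.

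Over all genes, 771 were called across both lines, 2063 without a filter on low counts, 1296 with DESeq2 and 0 without the replicate block, and the line difference went from 7652 to 4251 without the treatment term. Genes past 2-fold numbered 2864 in MIA PaCa-2 cells, 5816 without the filter, 1848 at a minimum of 5 CPM and 1719 with the whole interval. In PANC-1 cells they numbered 2078, 4847, 1297 and 1187. At baseline they numbered 6207 and, without the filter, 10878.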
